A study of Mus musculus with 9 samples.

Results

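The comparison described here sets macrophages given LCN2 (lipocalin 2) together with interleukin 4 (IL-4), once their differentiation was complete, against macrophages given IL-4 and vehicle. Its members are the 3 arrays titled as LCN2 from day 7 and the 3 titled as vehicle, 6 of the 9 arrays of the series, and all 19505 genes with 1 symbol on the array. The cells were bone-marrow-derived macrophages of healthy wild-type C57BL/6 mice, whose age is not given in the sources used here. Marrow cells grew for 7 days with macrophage colony-stimulating factor (M-CSF), at 10 ng/ml per the growth protocol and 20 ng/ml per the series text, and all groups then received 20 ng/ml IL-4 for 24 h. The LCN2 group of this comparison received LCN2 only from day 7 (no dose is stated for it), while the remaining 3 arrays came from cells kept in 150 ng/ml LCN2 from day 0. RNA levels were measured on expression arrays and are given on the log2 scale, on which a difference of 1 is a doubling. Each difference is LCN2 from day 7 minus vehicle, with its standard error (SE) and 3 arrays per group.

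LCN2 is a small secreted protein that captures bacterial siderophores and so keeps iron from bacteria, and it is made in large amounts by neutrophils and by activated macrophages. IL-4 signals through its receptor and the transcription factor STAT6 and drives macrophages to make arginase 1 (Arg1), the resistin-like protein Retnla, the chitinase-like protein Chil3 and the mannose receptor Mrc1. Type I interferons, which macrophages secrete at a low level even at rest, act through their receptor on short promoter motifs and keep a set of antiviral genes switched on.

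Of the 19505 genes, 10042 were bright enough to test, and limma called 0 of them between LCN2 from day 7 and vehicle (0% at a Benjamini-Hochberg adjusted p under 0.05, lowest adjusted p of 0.999906). At an unadjusted p under 0.05 there were 70 genes (0.697%), 29 of them higher with LCN2 (0.289%) and 41 lower (0.408%). With the title number as a block, that is, comparing arrays that carry the same number in their titles, limma again called 0 genes (0%), and 259 genes (2.58%) had an unadjusted p under 0.05, 131 higher (1.3%) and 128 lower (1.27%). In both fits the share was smaller than the 0.05 that the threshold itself allows when no gene differs. Genes named below for their rank are thus described and not called. The differences themselves were small. None of the 10042 genes differed by more than 1 between the group means, and 24 differed by more than 0.5, of which 14 were higher (0.139%) and 10 lower (0.0996%). The 95% interval of the difference lay within 1 of 0 for 9625 genes (95.8%), and within 0.5 of 0 for 5920 genes (59%). With the block these were 10008 genes (99.7%) and 8344 genes (83.1%). For most genes the arrays therefore bound any difference to less than a doubling or a halving, while smaller differences were not resolved.

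One feature of the arrays touches all results below. In every group the array numbered 1 stood apart from those numbered 2 and 3 along the first principal component (62.5% of the variance), and 3778 genes (37.6%) differed between them. The LCN2 array numbered 1 lay at -21.3 on that axis, nearer to the arrays numbered 2 and 3 than the vehicle array numbered 1 at -30.4. The LCN2 array numbered 2 lay lowest on the second component, at -16.1. Leaving out an array numbered 1 from a single group unbalances the title numbers, so values given below for such fits also move with the number. The macrophage genes Adgre1 and Csf1r were bright on all 6 arrays. Adgre1, which encodes the surface marker F4/80, lay between 11.64 and 11.91, and Csf1r, the M-CSF receptor, between 11.98 and 12.16. Of 28 macrophage identity genes, 22 were tested, 4 were dim (Cd163, Cx3cr1, Vsig4 and Timd4) and 2 were not matched. Among genes of other cell types, 16 of 21 lymphocyte genes were dim and 2 were tested. Bright enough to test were 17 of 25 monocyte genes and 18 of 27 neutrophil granule genes, beside 10042 of all 19505 genes. Not all of these are particular to such cells, as the monocyte genes Chil3, F13a1 and Fn1 are also on the IL-4 activation list. The dim members included Camp, Ctsg, Retnlg and Fcnb of the granule genes and Hp, Ace and Treml4 of the monocyte genes. Because RNA of whole cultures was measured, fewer cells of a type and less RNA per cell cannot be told apart.

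**Figure D1:**
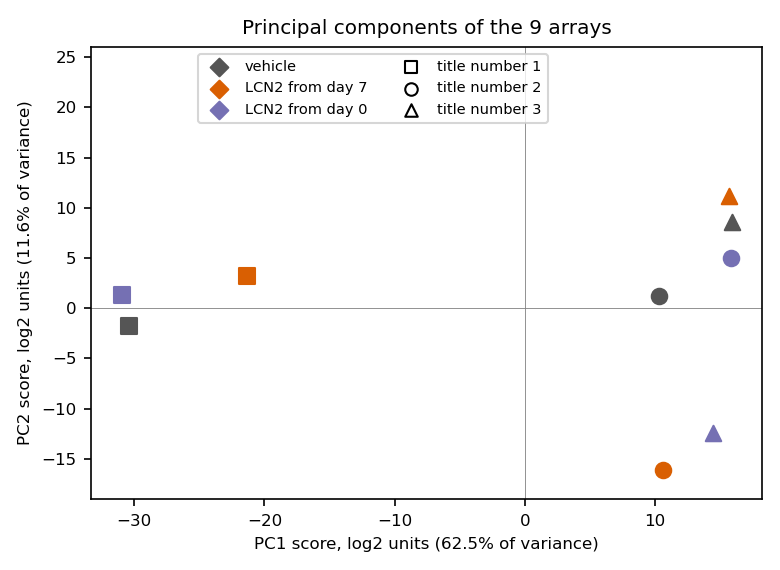
First and second principal component scores (log2 units) of the 9 arrays over the genes tested, with the group as the colour and the number in the array title as the shape. The arrays numbered 1 lie between -31.0 and -21.3 on the first component and the others between 10.3 and 15.9, while the groups are not separated on it.

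The 3 same-number differences were of unequal spread over genes, with an SD of 0.242 within number 1, 0.249 within number 2 and 0.174 within number 3. Within number 1, 20 genes were higher with LCN2 by more than 1 and 5 lower. Within number 2 the balance was the other way, with 1 gene higher and 19 lower, and within number 3 no gene passed 1 in either direction. Of the 20 genes higher within number 1, 14 belonged to those lower on the arrays numbered 1 in general, and 7 kept their direction in both other pairs. Of the 19 lower within number 2, 2 kept theirs. The large differences within single pairs were therefore mostly not shared by the other pairs.

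The gene with the lowest p without the block was Phxr4, a per-hexamer repeat gene, whose level lay at 5.79, 5.93 and 5.91 on the vehicle arrays and 6.52, 6.49 and 6.46 on the LCN2 arrays. The groups did not overlap, and the difference of 0.61 ± 0.145 held within numbers 1, 2 and 3 (0.73, 0.56 and 0.55). Ap4s1, the small subunit of the AP-4 vesicle coat adaptor, lay at 6.40, 6.76 and 6.75 with vehicle and 6.99, 7.34 and 6.95 with LCN2, a difference of 0.46 ± 0.159. Here too every LCN2 array was above every vehicle array. Dapk2, a calmodulin-dependent death-associated kinase, was higher by 0.37 ± 0.127 and Acbd6, an acyl-CoA binding protein, by 0.30 ± 0.106. Both had groups that did not overlap, as had 318 genes in all (3.17%) and 150 in the higher direction (1.49%).

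Lower with LCN2 at a similar rank were genes of varied roles. Sox9, a transcription factor of cartilage and stem cells, lay at 6.09, 5.89 and 6.18 with vehicle and 5.47, 5.46 and 5.73 with LCN2 (difference -0.50 ± 0.132). Nadsyn1, the last enzyme of NAD synthesis from nicotinic acid and from tryptophan, lay at 6.66, 6.64 and 6.61 with vehicle and 6.23, 6.14 and 6.31 with LCN2 (difference -0.41 ± 0.115). In both genes the vehicle arrays all lay above the LCN2 arrays, and the vehicle values of Nadsyn1 were close together. Zfp128, a zinc finger protein, differed by -0.51 ± 0.136, Llgl2, a cell polarity protein, by -0.44 ± 0.143 and Ppp1r3d, a glycogen-targeting subunit of protein phosphatase 1, by -0.37 ± 0.122. Sfi1, a centrosome protein, differed by -0.56 ± 0.197, at 7.05, 6.65 and 6.57 with vehicle and 6.28, 6.05 and 6.24 with LCN2. All 6 of these had groups that did not overlap, among 168 genes in the lower direction (1.67%).

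**Figure D2:**
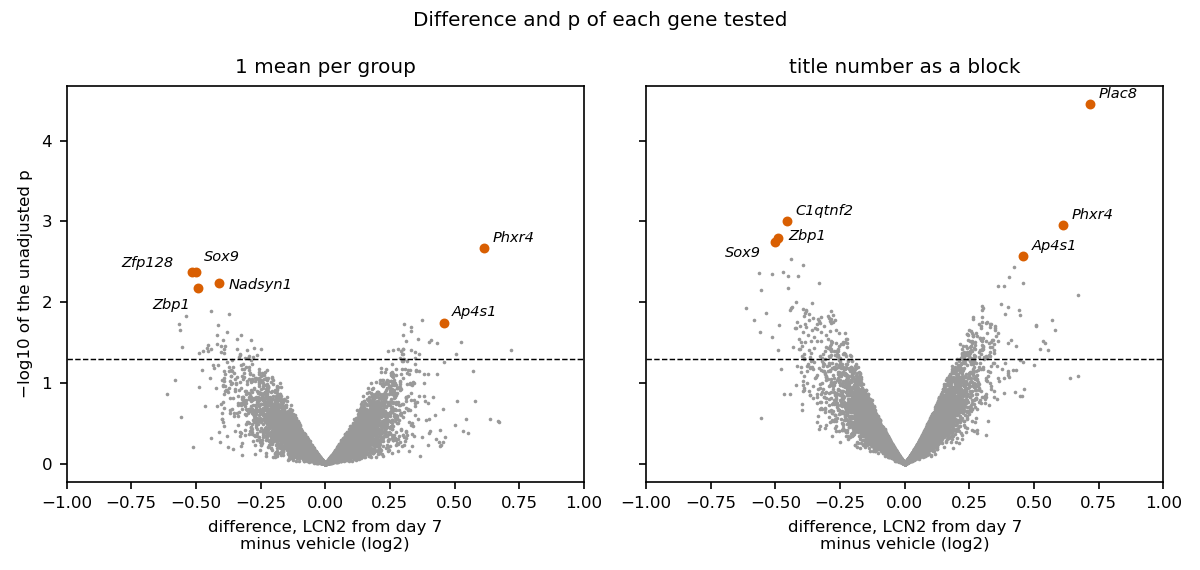
Difference of each of the 10042 genes (LCN2 from day 7 minus vehicle, log2) against −log10 of the unadjusted p from limma, without the block (left) and with the title number as a block (right); the dashed line marks an unadjusted p of 0.05. Phxr4 lies highest on the left and Plac8 on the right, and the named points are among the 12 lowest p-values of the panels; 0 genes passed after adjustment in either fit.

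With the block, the gene with the lowest p was Plac8, a small cysteine-rich protein abundant in monocytes and neutrophils. It lay at 5.82, 6.62 and 6.52 on the vehicle arrays and 6.58, 7.26 and 7.28 on the LCN2 arrays. The LCN2 array numbered 1 was the only one below the highest vehicle array, and within numbers 1, 2 and 3 the difference was 0.76, 0.63 and 0.77. The group difference was 0.72 ± 0.298, or ± 0.089 with the block, where the 95% interval ran from 0.51 to 0.92 and the adjusted p from limma was 0.353. C1qtnf2, a secreted protein of the C1q and TNF family, lay at 6.66, 6.19 and 6.12 with vehicle and 6.07, 5.79 and 5.73 with LCN2, and differed by -0.46 ± 0.092 with the block. Abcc6, an ATP-binding cassette transporter, differed by -0.44 ± 0.106 and Slc12a3, the sodium-chloride cotransporter, by -0.47 ± 0.120 with the block. H2ac21, a histone gene, was higher by 0.42 ± 0.106 with the block, within every number. Of the 12 genes with the lowest p in each fit, 6 were shared: Ap4s1, Phxr4, Sfi1, Sox9, Zbp1 and Zfp128.

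**Figure D3:**
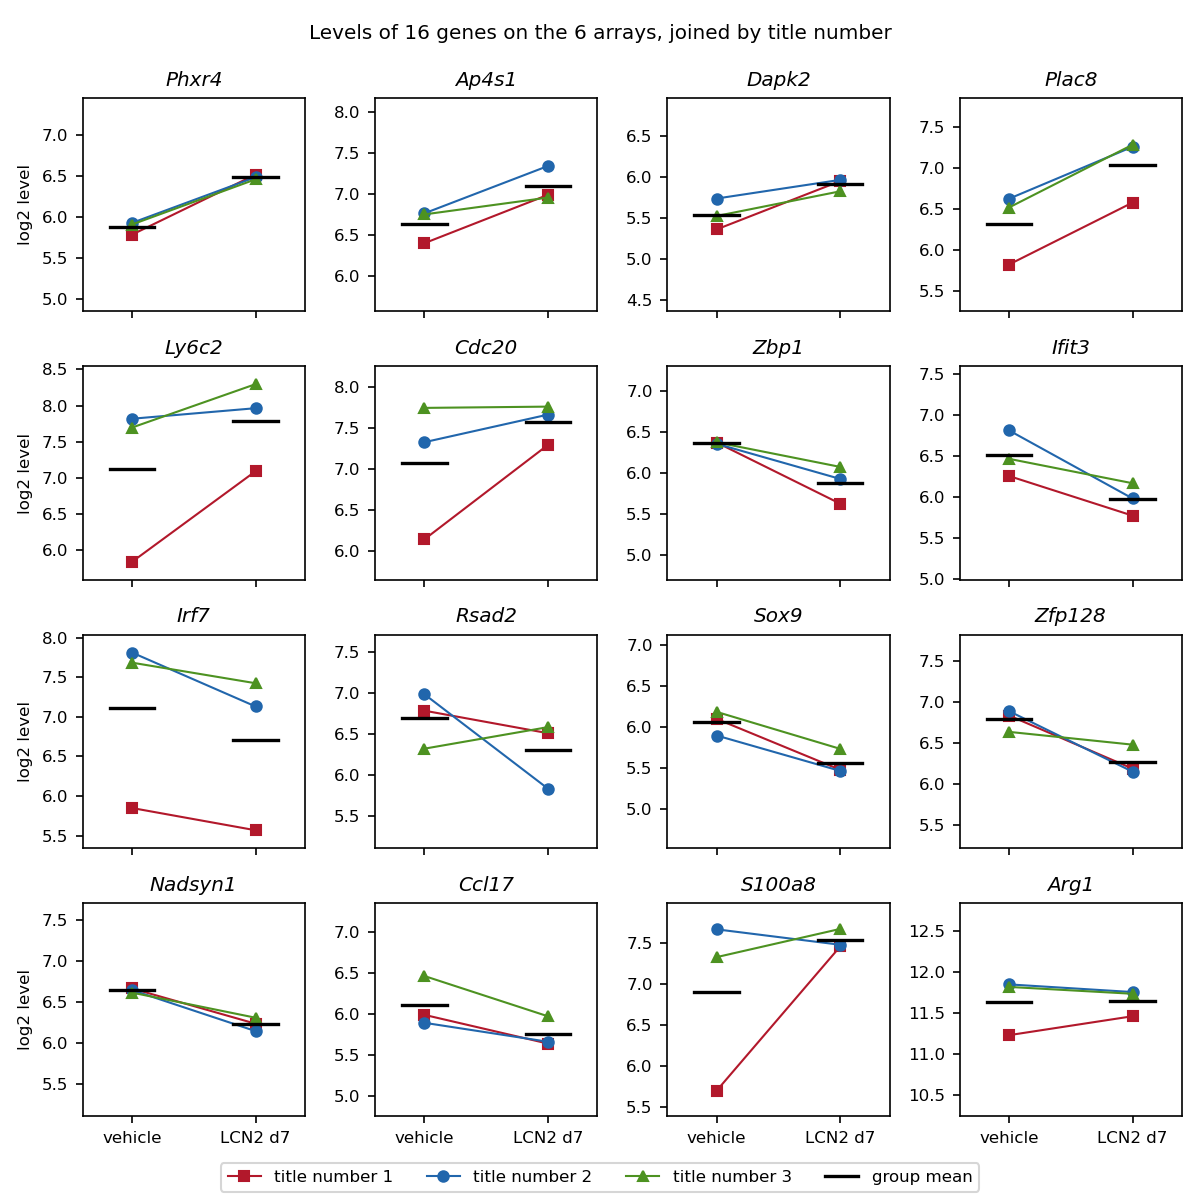
Log2 levels of 16 genes on the 3 vehicle and 3 LCN2-from-day-7 arrays; points of equal title number are joined and bars mark the group means, with each panel on its own level range. Phxr4, Plac8, Zbp1, Ifit3, Sox9, Zfp128 and Nadsyn1 run one way in all 3 pairs, whereas the S100a8 mean is set apart by the vehicle array numbered 1 at 5.70 and Rsad2 by the pair numbered 2.

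Genes of the type I interferon response were lower with LCN2 in most members. Of 34 genes on the list, 24 were tested, 8 were dim and 2 were not matched, and 21 of the 24 lay below 0, against 49.1% of all genes tested. The list was chosen with earlier results of these data known, and its members share the same 6 arrays. These counts therefore describe the list and do not test it. The median difference was -0.20, beside 0.0025 over all genes. Of the 24, 7 were lower within all 3 numbers and 0 higher, where 10.3% and 11.4% of all genes were (2179 genes in both directions, 21.7%), and 0 passed the adjusted test in either fit. The share lower within all 3 numbers (29.2%) was close to that of the MHC class I (28.6%) and inflammatory (25%) lists. The size of the shift differed between pairs, with medians of -0.17, -0.42 and -0.010 within numbers 1, 2 and 3. The mean level of the 24 genes was 7.38, 7.95 and 7.85 on the vehicle arrays and 7.17, 7.57 and 7.80 on the LCN2 arrays, so the groups overlapped. Within numbers 2 and 3 alone the median was -0.20. Leaving out 1 array at a time moved it between -0.37 (without the LCN2 array numbered 3) and -0.00014 (without the LCN2 array numbered 1). The last fit keeps the vehicle array numbered 1, which had the lowest vehicle mean, without its same-numbered partner.

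Among the effectors, Ifit3, which helps block translation of viral RNA, lay at 6.25, 6.81 and 6.46 with vehicle and 5.77, 5.98 and 6.16 with LCN2. All LCN2 values were below all vehicle values, and the difference was -0.54 ± 0.180. Cmpk2, a mitochondrial nucleotide kinase encoded beside Rsad2, differed by -0.49 ± 0.207, but within numbers 1, 2 and 3 by -0.034, -0.82 and -0.61. Rsad2, which encodes the antiviral enzyme viperin, lay at 6.78, 6.98 and 6.32 with vehicle and 6.51, 5.83 and 6.58 with LCN2. Its difference of -0.39 ± 0.230 came from the pair numbered 2 above all (-1.15), and the pair numbered 3 ran the other way (0.26).

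Among the sensors and regulators, Zbp1, which recognises Z-form nucleic acids, lay at 6.37, 6.36 and 6.37 with vehicle and 5.63, 5.93 and 6.08 with LCN2, and differed by -0.49 ± 0.141. Its 3 vehicle values were nearly equal and the 3 LCN2 values all lower. Irf7, the factor that amplifies interferon production, lay at 5.85, 7.81 and 7.68 with vehicle and 5.57, 7.13 and 7.42 with LCN2. It was lower within each number (-0.28, -0.68 and -0.26), with a difference of -0.41 ± 0.636, or ± 0.165 with the block. Outside the list, Ifi213, an interferon-inducible member of the p200 family, had the lowest difference among genes whose 3 pairs agreed in sign, at -0.61 ± 0.377 (-0.75 within number 1 and -0.096 within number 3, with the largest difference within number 2). The 3 list members above 0 were close to it: Ifitm3 differed by 0.016 ± 0.162, Mx1 by 0.021 ± 0.358 and Ifi35 by 0.0032 ± 0.120. Isg15, the ubiquitin-like antiviral modifier, was dim, with group means of 5.13 and 4.84.

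The interferon-stimulated response element, the promoter motif of this gene set, was searched on both strands, as GAAA and GAAA with 2 bases of any kind (NN) between them, in RefSeq promoter windows of 250 bases before to 50 bases after the gene start (GRCm38.p6). Of the 24 interferon genes, 16 had a window, and 10 of these (62.5%) held the motif, against 3.99% of the promoters of all 27025 genes. The 10 genes with the motif had a median difference of -0.14 (9 below 0) and the 6 without it -0.29 (5 below 0). Over all genes tested, the 308 with the motif had a median of 0.0068, with 150 below 0 and 158 above. The 7928 without it had a median of 0.0027, so genes with the motif were not lower in general. Ifitm3, which differed by 0.016, was among the 10 with a match. As examples, the windows of the effectors Ifit3 and Rsad2 are shown from 170 to 51 bases before the start, 5′ to 3′ on the strand of the gene, with matches in capitals, read here from the opposite strand of the motif. The first lies at chr19:34583359-34583478 on the plus strand, the second at chr12:26456503-26456622 on the minus strand.
Ifit3: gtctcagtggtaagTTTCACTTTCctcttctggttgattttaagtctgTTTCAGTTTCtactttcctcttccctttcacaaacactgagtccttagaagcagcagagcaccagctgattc
Rsad2: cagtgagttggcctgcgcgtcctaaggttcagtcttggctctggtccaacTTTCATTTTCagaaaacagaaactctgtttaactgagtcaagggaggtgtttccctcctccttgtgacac
Ifit3 held 2 matches in this window and Rsad2 held 1. A match describes the letters only.

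Of the genes that answer mainly to interferon gamma, 9 were tested and 7 of them lay below 0, with a median of -0.11. Within numbers 1, 2 and 3 the medians were -0.22, 0.021 and -0.028, and leaving out 1 array moved the overall median between -0.22 and -0.024. Lower within all 3 numbers was 1 member (11.1%), and 0 were higher, against 10.3% and 11.4% of all genes. Igtp, an immunity-related GTPase, lay at 6.42, 6.61 and 6.59 with vehicle and 6.11, 6.09 and 6.22 with LCN2, a difference of -0.40 ± 0.170 with groups that did not overlap. Its relatives Irgm1 and Irgm2 differed by 0.028 ± 0.135 and -0.012 ± 0.164, and the factor Irf1 by 0.097 ± 0.363. Irgm1 and Irf1 were the 2 members above 0. The guanylate-binding proteins Gbp7 and Gbp2 differed by -0.21 ± 0.181 and -0.19 ± 0.760.

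The IL-4 programme was close to equal in both groups. Of 27 IL-4 activation genes tested, 21 lay below 0, but the median was -0.054. Within all 3 numbers 4 were lower and 1 higher (14.8% and 3.7%), against 10.3% and 11.4% of all genes. Arg1 lay at 11.23, 11.85 and 11.82 with vehicle and 11.47, 11.76 and 11.74 with LCN2, and differed by 0.018 ± 0.287. With the block its 95% interval ran from -0.33 to 0.36. The blocked intervals were -0.39 to 0.22 for Retnla, -0.29 to 0.16 for Chil3 and -0.34 to 0.25 for Mrc1, so with the block each of the 4 hallmark genes was bounded inside a doubling or a halving. Without it the interval was wider, up to -1.39 to 1.26 for Chil3, whose level was higher on the arrays numbered 1 in both groups. The member furthest below 0 was Ccl17, a chemokine for CCR4-bearing T cells, at 5.99, 5.90 and 6.47 with vehicle and 5.64, 5.67 and 5.98 with LCN2 (-0.36 ± 0.169, and -0.35, -0.23 and -0.49 within the numbers). F13a1, the coagulation factor XIII A subunit, was the member furthest above 0, at 0.25 ± 0.172, of which 0.59 came within number 3. The list's median turned to 0.13 without the vehicle array numbered 1 and to 0.056 without the LCN2 array numbered 2. Both fits leave the title numbers unbalanced, and with numbers 2 and 3 alone the median was -0.037. Of the 12 genes tested that carry the IL-4 signal, the feedback inhibitors Socs1 and Cish differed by -0.11 ± 0.226 and -0.11 ± 0.265.

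Markers of monocytes, the blood cells from which macrophages form, were higher in some members only. Of 17 tested, 10 lay above 0 with a median of 0.049. Within all 3 numbers 4 were higher and 1 lower (23.5% and 5.88%), against 11.4% and 10.3% of all genes. After Plac8, Ly6c2, a surface antigen of inflammatory monocytes, lay at 5.83, 7.82 and 7.69 with vehicle and 7.09, 7.96 and 8.30 with LCN2. Its difference of 0.67 ± 0.599 (± 0.193 with the block) was 1.26, 0.15 and 0.60 within the numbers. Leaving out the vehicle array numbered 1 took it to 0.027, but this keeps the low LCN2 array of that number. With numbers 2 and 3 alone it was 0.37. Ly6c1, whose near-identical sequence may share probes with Ly6c2, differed by 0.55 ± 0.655. Ccr2, the receptor that draws monocytes from marrow, differed by -0.082 ± 0.918.

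In neutrophil granule genes single arrays weighed heavily. S100a8, a calcium-binding alarmin, lay at 5.70, 7.67 and 7.33 with vehicle and 7.46, 7.48 and 7.67 with LCN2, a difference of 0.64 ± 0.554. Within the numbers this was 1.76, -0.19 and 0.34, so the low vehicle array numbered 1 set the mean apart, and without it the difference was 0.039. Mpo, the myeloperoxidase of granules, differed by 0.46 ± 0.607 (1.10, -0.020 and 0.31), and turned to -0.22 without that array. With numbers 2 and 3 alone, where neither group keeps its array numbered 1, Mpo differed by 0.14. Lcn2 itself, a granule gene and the transcript of the added protein, lay at 8.24, 10.56 and 10.29 with vehicle and 9.24, 10.39 and 10.65 with LCN2. It differed by 0.40 ± 0.704, with pairs at 1.01, -0.17 and 0.36, and its proposed receptor Slc22a17 was dim in both groups (means 5.17 and 5.01). Of the 18 members tested, 12 lay above 0 and 6 below. Within all 3 numbers 2 were higher and 3 lower (11.1% and 16.7%), against 11.4% and 10.3% of all genes. Cxcr2, a chemokine receptor of neutrophils, differed by -0.16 ± 0.322. The list's median was 0.10, with -0.051 within number 2, and it was 0.019 among the brightest 25% of probe sets. Leaving out 1 array moved it between 0.019 (without the vehicle array numbered 1) and 0.24 (without the vehicle array numbered 3). The members' mean level ran from 7.64 to 8.30 on the vehicle arrays and from 8.04 to 8.44 on the LCN2 arrays. Of the list, 7 were dim.

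Of 20 markers of progenitors and mast cells, 8 were tested, 11 were dim and 1 was not matched. The dim ones included Kit, Flt3, Fcer1a and Ms4a2. Of the 8 tested, 7 lay above 0, and the median was 0.20. Mpo and Elane among them are also on the neutrophil granule list, so the lists are not independent. Within numbers 1, 2 and 3 the medians were -0.024, 0.022 and 0.32. Higher within all 3 was 1 member and lower 1 (12.5% each), against 11.4% and 10.3% of all genes. Elane, the neutrophil elastase made by granulocyte precursors, differed by 0.40 ± 0.457 (0.71, 0.17 and 0.33 within the numbers). Cpa3, a mast cell protease, differed by 0.24 ± 0.299, and Gata2, a factor of progenitors and mast cells, by -0.13 ± 0.396. The mean level of the 8 genes ran from 5.97 to 6.53 on the vehicle arrays and from 6.12 to 6.83 on the LCN2 arrays. Leaving out 1 array moved the median between 0.067 (without the LCN2 array numbered 3) and 0.35 (without the LCN2 array numbered 1). The part of other marrow cells in the differences reported here was not tested.

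Cell cycle genes were higher with LCN2 in 47 of 51 members, against 50.9% of all genes, with a median of 0.14. This list too was chosen with earlier results known and its members share the same arrays, so the count is a description only. Within all 3 numbers 16 were higher and 2 lower (31.4% and 3.92%), against 11.4% and 10.3% of all genes. The pairs contributed unequally, with medians of 0.35, 0.064 and 0.0044 within numbers 1, 2 and 3. The mean level of the list was 7.72, 8.54 and 8.77 with vehicle and 8.11, 8.58 and 8.78 with LCN2, and the same genes were lower on the arrays numbered 1 by a median of 0.91 (-0.91 relative to the other arrays). Cdc20, an activator of the anaphase-promoting complex, lay at 6.14, 7.33 and 7.75 with vehicle and 7.30, 7.66 and 7.76 with LCN2 (0.50 ± 0.492). Its pairs gave 1.15, 0.34 and 0.016. Mki67, the proliferation antigen Ki-67, differed by 0.61 within number 1 and by -0.012 and 0.042 within numbers 2 and 3. Tk1, the thymidine kinase of S phase, had its largest difference within number 2 (0.52), at 6.55, 6.71 and 6.77 with vehicle and 6.89, 7.24 and 6.85 with LCN2 (0.31 ± 0.208). With numbers 2 and 3 alone the list's median was 0.035, and it turned to -0.18 without the vehicle array numbered 1. The latter fit keeps the LCN2 array numbered 1, where these genes were also low, so the turn partly reflects unbalanced title numbers. Cdc25b, a phosphatase that opens mitosis, and Cst7, the cystatin F protease inhibitor, followed the same course, at 1.32, 0.15 and 0.16 and at 1.28, 0.35 and 0.10 within the numbers.

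MHC class II genes, which present peptides to helper T cells, were lower in 7 of 8 members, with a median of -0.12. Of the 8, 0 were lower within all 3 numbers, against 10.3% of all genes. Within numbers 1, 2 and 3 the medians were -0.44, 0.0076 and 0.050. H2-Ab1 lay at 10.96, 10.20 and 10.21 with vehicle and 10.53, 10.32 and 10.12 with LCN2, a difference of -0.13 ± 0.246. H2-DMa, which loads peptides, differed by -0.32 ± 0.147, and by -0.52, -0.52 and 0.084 within the numbers. Without the vehicle array numbered 1 the list's median was 0.070, and with numbers 2 and 3 alone it was 0.011.

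For iron handling genes, of interest since LCN2 binds iron carriers, the median over 23 tested members was -0.020 and the mean 0.00081. Slc40a1, the iron exporter ferroportin, lay at 7.09, 8.21 and 7.98 with vehicle and 6.90, 8.54 and 8.40 with LCN2 (0.18 ± 0.480). The transferrin receptor Tfrc differed by -0.025 ± 0.452 and the haem oxygenase Hmox1 by -0.050 ± 0.142. Bdh2, an enzyme linked to a mammalian siderophore, was higher by 0.15 ± 0.119 and alike within the numbers (0.18, 0.14 and 0.14). None of the 23 passed the test, with or without the block.

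Over 20 inflammatory genes the median was 0.030 and the mean -0.010. Within all 3 numbers 5 were lower and 1 higher (25% and 5%), against 10.3% and 11.4% of all genes. The neutrophil chemokine Cxcl3 differed by -0.35 ± 0.278 (-0.37, -0.20 and -0.49 within the numbers), Tnf by -0.049 ± 0.390, and Il1b was dim in both groups. In lipid metabolism, Idi1 of isoprenoid synthesis was higher by 0.34 ± 0.184 (0.58, 0.16 and 0.28), while the median of the 19 cholesterol synthesis genes was 0.021. Abca1, the cholesterol exporter, differed by -0.32 ± 1.18, since it lay at 10.47 and 10.18 on the arrays numbered 1 and between 6.82 and 7.77 on the others. Slc25a20, the mitochondrial carnitine carrier of fatty acid oxidation, lay at 7.96, 8.37 and 8.28 with vehicle and 7.81, 7.99 and 8.01 with LCN2 (-0.27 ± 0.141). The 32 oxidative phosphorylation genes had a median of 0.015 and for the 22 macrophage identity genes the median was 0.0011, with the mean at -0.011. None of the members of these lists passed the test, and leaving out 1 array moved the cholesterol synthesis median between -0.18 and 0.17.

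**Figure D4:**
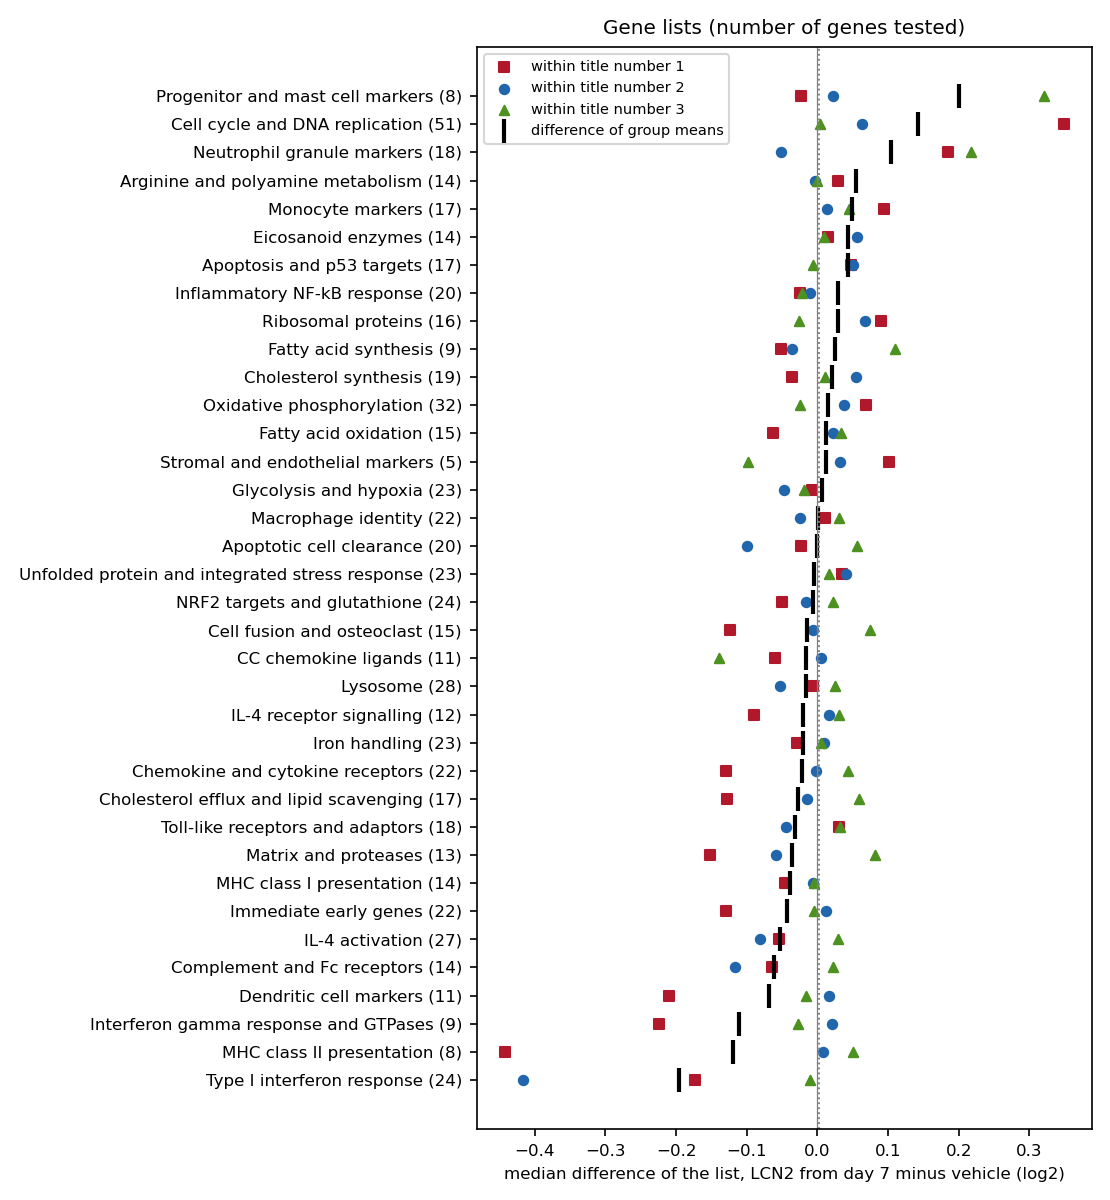
Median difference (LCN2 from day 7 minus vehicle, log2) of each gene list with at least 5 tested members, as the difference of group means (bar) and within title numbers 1, 2 and 3 (points); the dotted line is the median of all genes. Type I interferon genes have the lowest bar (-0.20), and the points of number 1 lie furthest out for cell cycle (0.35) and MHC class II genes (-0.44).

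LCN2 from day 0 was also set against LCN2 from day 7, with exposure times that differ and a dose stated for the early group only. Limma called 0 of 10042 genes between these groups (0%), with 177 genes at an unadjusted p under 0.05 (1.76%), and 0 with the block (0%). The following differences between the 2 LCN2 groups thus did not pass after adjustment. Sox9 differed from vehicle by -0.50 after day 7 and by -0.086 after day 0 (day 0 minus day 7, 0.42 ± 0.132). Ppp1r3d differed by -0.37 and 0.18 (0.55 ± 0.122). Both genes were named for low p-values against vehicle, which rest on the same day 7 arrays. A difference between the LCN2 groups is therefore partly built in for them. Dcstamp, which macrophages need to fuse, differed from vehicle by -0.10 ± 0.193 after day 7 and -0.87 ± 0.193 after day 0 (-0.77 ± 0.193 between them). For type I interferon genes the median was -0.20 after day 7 and -0.23 after day 0, both against the same vehicle arrays. MHC class II genes had medians of -0.12 and -0.53, again against shared vehicle arrays.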

How the data were processed

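RNA of mouse macrophages was hybridised to 9 expression arrays, with 3 arrays for each of 3 treatments. The deposited table gives log2 levels of 22203 probe sets, which the authors made by RMA in oligo, an R package, per the submitters' processing notes, with no versions given. RMA corrects background, equalises the distributions of the arrays and summarises probes to log2 levels. No further scaling was applied, and array medians lay between 5.60 and 5.69. Precision is limited by the number of arrays.

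Of the probe sets, 19572 had 1 gene symbol and 2631 had none. All 19572 matched RefSeq (GRCm38.p6) by Entrez identifier. Where a gene had several probe sets (55 genes), the one with the highest mean was kept. Genes whose probe-set mean lay below the median of all probe sets (5.66) were left out as dim.

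Linear models were fitted in R 4.3.3 with limma 3.58.1, using a mean for each group and all 9 arrays, and p-values were adjusted by Benjamini-Hochberg over 10042 genes. The fit without the block was also run on simulated arrays with independent noise for each gene and array. These lacked the title-number structure of the real arrays, so they cannot show how the fit behaves under it. The title number was the block of an alternative fit. Deviations of same-numbered arrays from their group means correlated above 0.1 in 9 of 9 comparisons (0.16 to 0.82), and the titles' numbers were taken as pairs. Within a group the 3 deviations sum to 0, and the arrays numbered 1 stood apart in every group. Positive values for numbers 2 and 3 are therefore partly built in. The contrast of number 2 with number 3 correlated at 0.29, -0.11 and -0.39 between groups, so the pairing of these 2 numbers rests on the titles. Blocked SEs and intervals depend on that pairing. Whether arrays of 1 group stem from different mice or cultures is not labelled, so p-values reflect only the spread among these samples, and that spread may be technical.

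The 39 gene lists and the members were chosen with earlier results of these data known. Genes are named when they have 1 of the 12 lowest p-values in either fit, or 1 of the 8 highest or lowest differences with 3 pairs of one sign, or are among the 3 highest or lowest members of a list, or belong to a fixed set of LCN2, IL-4, interferon, iron and marker genes. Lists are described by counts and medians. Alternatives were other filters, scalings, variance models, arrays left out, and numbers 2 and 3 alone. The fit of numbers 2 and 3 with their number as a block was chosen after the data were seen.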

Additional observations from a re-analysis of the deposited data

How the results depend on the processing

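Limma called 0 genes under every alternative run. The count at an unadjusted p under 0.05, 70 as reported, came to 259 with the title number as the replicate block, 43 with the 6 arrays alone, 375 with those and the block, 418 without the filter on dim genes, 10 among the brightest 25% of probe sets, 207 with numbers 2 and 3 only and 168 with their number as a block as well. Leaving out 1 array gave 39 to 149: 39 without vehicle number 2, 146 without LCN2 number 1 and 149 without LCN2 number 3. Genes with groups that do not overlap, 318 as reported, numbered 1158 without the filter, 100 among the brightest, 2580 with numbers 2 and 3 only and 678 to 1459 with 1 array left out, which leaves fewer values to overlap. Genes with 3 pairs of one sign, 2179 as reported, numbered 4485 without the filter and 976 among the brightest. The median of the monocyte list moved from 0.049 to -0.038 among the brightest and 0.0052 with numbers 2 and 3 only, with or without the block, and ran from 0.027 to 0.14 with 1 array left out. With 1 array left out the cell cycle median ran from -0.18 to 0.37 and the IL-4 median from -0.17 to 0.13. Such fits keep the same-numbered array of the other group, so these values also move with the title number. With the block, as without it, limma called 0 genes. Of the 29 genes named for their p or for the size of their difference, Cd24a and Pkp2 turned sign, each without the vehicle array numbered 1 (-0.057 and 0.29), and Pkp2 also without the LCN2 array numbered 2. With numbers 2 and 3 only, both kept their sign (0.50 and -0.53).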

Other observations

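A few genes outside the groups above had among the larger differences with 3 pairs of one sign. Cd24a, a surface glycoprotein of immature blood cells, lay at 5.06, 6.78 and 6.88 with vehicle and 5.66, 7.21 and 7.45 with LCN2, and was higher by 0.60, 0.43 and 0.57 within numbers 1, 2 and 3. Nhsl2, a relative of the Nance-Horan syndrome gene, lay at 5.26, 6.12 and 5.67 with vehicle and 6.15, 6.13 and 6.48 with LCN2 (0.57 ± 0.279). Its pair numbered 2 was nearly level (0.018). Gm10100, a predicted gene, was higher by 1.28 within number 2 and by 0.14 and 0.15 within the others. In the lower direction, Asb13, a substrate receptor of a ubiquitin ligase, lay at 7.64, 7.53 and 7.56 with vehicle and 6.96, 6.76 and 7.35 with LCN2 (-0.56 ± 0.204). Tecpr2, an autophagy protein, differed by -0.56 ± 0.226 and Cyp2j6, a cytochrome P450, by -0.58 ± 0.310, both with their lowest value on the LCN2 array numbered 2 (5.21 and 5.30). Pkp2, a plakophilin of cell junctions, lay at 8.85 and 8.37 on the arrays numbered 1 and between 5.55 and 6.48 on the others, so its difference of -0.51 ± 0.985 was small beside that spread.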
